A study of Mus musculus with 8 samples.

Results

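Cytochrome P450 enzymes of families 1 to 4 are the liver's main oxidases for drugs, steroids and fatty acids, and 79 of the 55385 genes in the deposited table belong to them. The members were chosen by symbol: Cyp, a family number from 1 to 4, a subfamily letter and a gene number, without pseudogenes. Liver RNA was sequenced from 4 *Usp39*-HKO male mice (A469, A470, A471 and A474) and 4 control male littermates (A468, A472, A473 and A475), whose genotype the labels give as WT. All mice were 5 weeks old and had been fasted for 16 h. In *Usp39*-HKO mice, *Alb-Cre* removes exon 2 of *Usp39*, which is flanked by loxP sites, and Cre is driven in hepatocytes by the albumin promoter, while the RNA came from whole liver. *Usp39* encodes a protein of the spliceosome that belongs to the ubiquitin-specific protease family by its sequence. The total count per mouse ran from 8589636 to 10418450 among controls and from 9479922 to 10195028 among *Usp39*-HKO mice. A count of 3, the floor used here, stood for 0.288 to 0.349 CPM, counts scaled to library totals, a limit that covers counting error only.

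A P450 enzyme holds a haem group and inserts an oxygen atom into its substrate with electrons passed on by the reductase *Por*. Families 1 to 3 act mostly on foreign compounds, steroids and bile acids, and family 4 acts mostly on fatty acids. In mouse liver many of these genes lie in tandem clusters and are set by nuclear receptors, by the aryl hydrocarbon receptor and by the sex-dependent rhythm of growth hormone, so that males and females express different members. Levels are given as FPKM, counts divided by exon length and by the total of the mouse, and values for single mice follow the order of names above. Changes are log2 fold changes, *Usp39*-HKO against control, from edgeR on the raw counts, and a gene is called where its p, adjusted over all genes tested, is under 0.05. The SE given with a change is its absolute value divided by the square root of the F statistic of the test.

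All 79 members have a place in the annotation of GRCm38, the assembly also known as mm10, and 65 have a promoter window in RefSeq on the same assembly. The windows run from 250 bases before to 50 bases after the start of transcription. Motif letters were searched on both strands, and no 2 matches of different motifs shared bases. CAAAGTCCA, letters known from HNF4A sites, were in 13.9% of the 72 member windows and in 0.475% of all 32851 windows. TATAAA, the letters of the TATA box, was in 40.3% of member windows and 13.6% of all windows, counted at any place in the window. GCGTG, the core to which the aryl hydrocarbon receptor binds, was in 19.4% against 32.4%, and TTCNNNGAA, the STAT5 letters, in 5.56% against 8.3%. The HNF4A letters occurred before 10 members of the *Cyp2c* and *Cyp3a* subfamilies, near copies among them. A match is a description of the window and not a site shown to be bound.

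These windows belong to members with large called changes, and to *Cyp2a5* as the near copy of *Cyp2a4*, all on the strand of the gene, 5′ to 3′, with motif matches in capitals. *Cyp2a4* (chr7:26306942-26307241, plus strand) and *Cyp2a5* (chr7:26835089-26835388, plus strand) share 97.7% of their aligned window, and both hold TATAAA.
Cyp2a4: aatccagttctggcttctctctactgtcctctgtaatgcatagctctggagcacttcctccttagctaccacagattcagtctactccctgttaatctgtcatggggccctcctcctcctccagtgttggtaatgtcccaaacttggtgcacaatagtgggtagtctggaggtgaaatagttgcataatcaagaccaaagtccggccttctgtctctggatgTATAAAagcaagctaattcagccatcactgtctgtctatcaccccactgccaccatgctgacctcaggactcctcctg
Cyp2a5: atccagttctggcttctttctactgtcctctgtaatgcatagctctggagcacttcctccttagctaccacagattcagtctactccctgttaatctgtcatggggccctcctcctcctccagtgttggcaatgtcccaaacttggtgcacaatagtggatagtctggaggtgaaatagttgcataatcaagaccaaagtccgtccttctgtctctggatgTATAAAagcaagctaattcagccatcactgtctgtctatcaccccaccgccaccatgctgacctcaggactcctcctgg
*Cyp3a41a* (chr5:145720087-145720386, minus strand) and *Cyp3a44* (chr5:145805825-145806124, minus strand) share 93% of their aligned window, and CAAAGTCCA is complete in the former alone.
Cyp3a41a: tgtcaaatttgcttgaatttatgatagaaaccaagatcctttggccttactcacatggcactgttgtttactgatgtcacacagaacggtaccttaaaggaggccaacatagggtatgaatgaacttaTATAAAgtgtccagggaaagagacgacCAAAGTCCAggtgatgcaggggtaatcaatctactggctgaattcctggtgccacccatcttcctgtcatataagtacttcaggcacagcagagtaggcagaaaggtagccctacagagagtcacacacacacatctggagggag
Cyp3a44: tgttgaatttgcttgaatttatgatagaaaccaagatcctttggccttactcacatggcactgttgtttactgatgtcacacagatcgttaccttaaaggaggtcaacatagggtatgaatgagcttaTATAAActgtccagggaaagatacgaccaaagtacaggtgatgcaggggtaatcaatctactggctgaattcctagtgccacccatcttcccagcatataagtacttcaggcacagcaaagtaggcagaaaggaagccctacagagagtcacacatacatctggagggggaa
*Cyp2c40* (chr19:39812765-39813064, minus strand) and *Cyp2c69* (chr19:39886720-39887019, minus strand) share 80.9% with end gaps counted, and in both the capitals mark CAAAGTCCA and TATAAA.
Cyp2c40: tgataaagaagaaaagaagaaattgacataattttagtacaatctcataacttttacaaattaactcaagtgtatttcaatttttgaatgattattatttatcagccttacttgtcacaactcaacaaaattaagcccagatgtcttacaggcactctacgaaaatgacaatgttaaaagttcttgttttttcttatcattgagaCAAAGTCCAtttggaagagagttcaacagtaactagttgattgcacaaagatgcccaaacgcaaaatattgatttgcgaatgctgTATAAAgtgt
Cyp2c69: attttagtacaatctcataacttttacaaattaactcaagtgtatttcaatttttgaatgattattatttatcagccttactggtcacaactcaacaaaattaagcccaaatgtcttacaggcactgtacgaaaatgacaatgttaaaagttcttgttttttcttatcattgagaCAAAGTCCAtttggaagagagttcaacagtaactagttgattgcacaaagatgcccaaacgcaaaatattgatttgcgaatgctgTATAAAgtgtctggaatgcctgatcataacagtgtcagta
*Cyp2d9* (chr15:82452127-82452426, plus strand) was the most abundant of the fallen *Cyp2d* genes in controls, and its capitals mark TATAAA on the opposite strand. This RefSeq window lies within the annotated gene, which runs from 82433437 to 82456845, and not at its outer start.
Cyp2d9: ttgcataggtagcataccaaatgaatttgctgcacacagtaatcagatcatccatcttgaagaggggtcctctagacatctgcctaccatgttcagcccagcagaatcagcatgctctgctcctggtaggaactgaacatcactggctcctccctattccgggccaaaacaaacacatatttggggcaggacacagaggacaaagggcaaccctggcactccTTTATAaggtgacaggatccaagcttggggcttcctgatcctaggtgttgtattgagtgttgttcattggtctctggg

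*Usp39* itself had 9.35, 10.4, 8.76 and 9.78 FPKM in controls and 8.37, 8.63, 8.7 and 8.07 FPKM in *Usp39*-HKO mice. Every *Usp39*-HKO mouse lay below every control mouse, and the difference was small in whole liver. *Usp39* fell by 0.41 on the log2 scale (SE 0.11, adjusted p = 0.0212). *Usp39* lost its call without scaling (-0.18), with limma (-0.16) and when A475 or A474 was left out (adjusted p between 0.0547 and 0.247).

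In *Usp39*-HKO livers more P450 members fell than rose. Of the 79 members, 54 passed the filter on low values, 0.5 FPKM or more in 4 or more of the 8 mice, and 34 of these (63%) were called, against 22.5% of all 14340 genes tested. Lower in *Usp39*-HKO livers were 25 members (46.3% of those tested, against 11.6% of all genes), and higher were 9 (16.7% against 10.9%). Another 20 members were tested and not called, 8 with a log2 fold change above 0 and 12 below. The median log2 fold change of the tested members was -0.48, beside -0.00148 for all genes tested. Of the called members 26.5% were higher, a share that was 41.9% without scaling beyond total counts and 44.4% with limma on log2(FPKM + 1), while the median log2 fold change of all genes without scaling was 0.237. All changes below are relative to the median gene, while FPKM are not. The number of lower members was 14 without control A473 and 16 without control A475. The FPKM minimum was reached in fewer than 4 mice of a group by 5 members, namely *Cyp1b1*, *Cyp2c55*, *Cyp2d11*, *Cyp3a41a* and *Cyp4f18*, and all but *Cyp2d11* were called higher.

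Not tested were 25 members, of which 9 had no count in any mouse: *Cyp2b23*, *Cyp2c66*, *Cyp2d34*, *Cyp2j11*, *Cyp2j12*, *Cyp2j13*, *Cyp2w1*, *Cyp4a29* and *Cyp4f40*. The other 16 had counts but too few mice at the minimum. Among them 3, all known as female-biased, had an FPKM over 1 in at least 2 *Usp39*-HKO mice, and they are described with their subfamilies. In a fit without the filter, edgeR called *Cyp2b13*, *Cyp2s1*, *Cyp3a16* and *Cyp3a41b* higher. Members tested but not called in the main fit gained calls there too (adjusted p between 0.00362 and 0.0397). They were *Cyp2a5* and *Cyp2a22*, higher, and *Cyp2c37*, *Cyp2c38*, *Cyp4a12b*, *Cyp4a32* and *Cyp4b1*, lower.

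**Figure D1:**
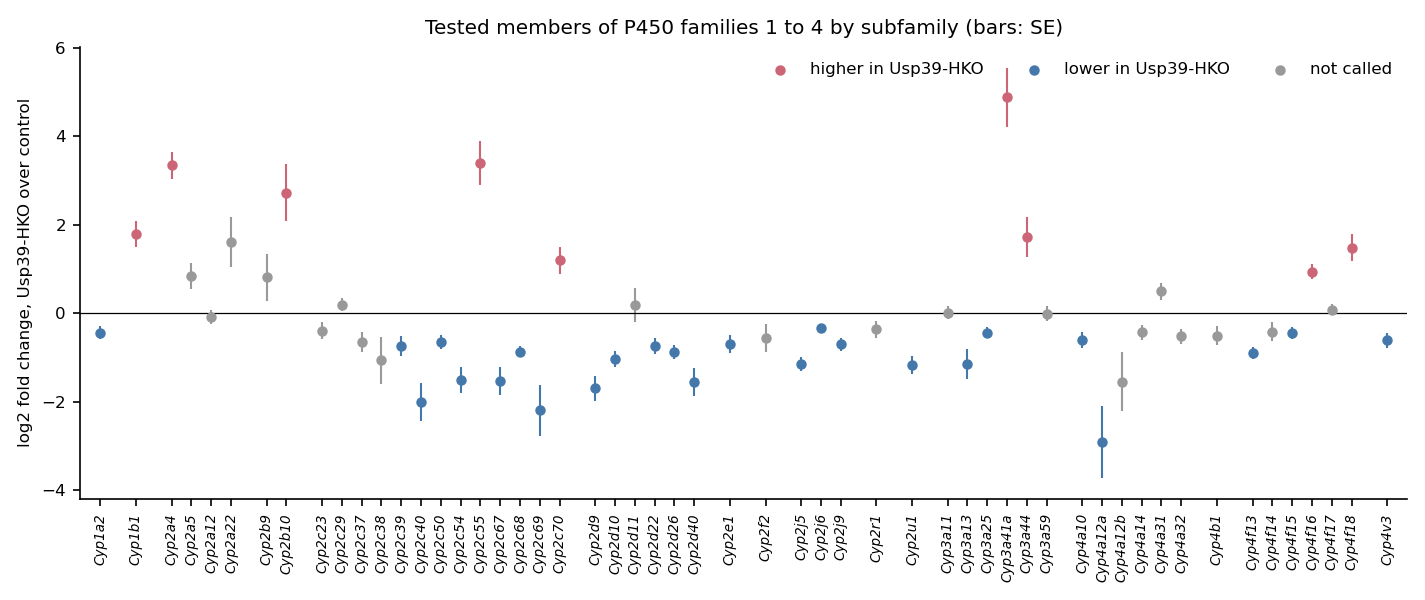
Log2 fold change, *Usp39*-HKO against control, for the 54 tested members, grouped by subfamily, with bars for the SE and colours for the call. The called members run from -2.92 (*Cyp4a12a*) to 4.88 (*Cyp3a41a*), and 25 of the 34 lie below 0.

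Taken as a sum, the members held 3.23 ± 0.0864% of all counts in controls and 2.72 ± 0.338% in *Usp39*-HKO livers (mean ± SD, n = 4 mice). Their FPKM added up to 12976, 13127, 13725 and 12968 in controls and to 11997, 10681, 11535 and 8763 in *Usp39*-HKO mice. Each *Usp39*-HKO sum lay below each control sum, and A474 had the lowest. In controls the 8 most abundant members made up 75.5% of the sum, and the same 8 made up 72.3% in *Usp39*-HKO livers. By subfamily, the summed FPKM of *Cyp2d* went from 1630 ± 111 to 841 ± 137 and that of *Cyp4a* from 4989 ± 317 to 4202 ± 542. *Cyp2e1* went from 2480 ± 168 to 1781 ± 405, and *Cyp2c* from 1325 ± 96.1 to 954 ± 150. *Cyp3a* summed to 1529 ± 54.3 and 1567 ± 87.8, and *Cyp2a* to 293 ± 27.6 and 568 ± 153. In whole liver, fewer cells of a type and less RNA per cell cannot be told apart.

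**Figure D2:**
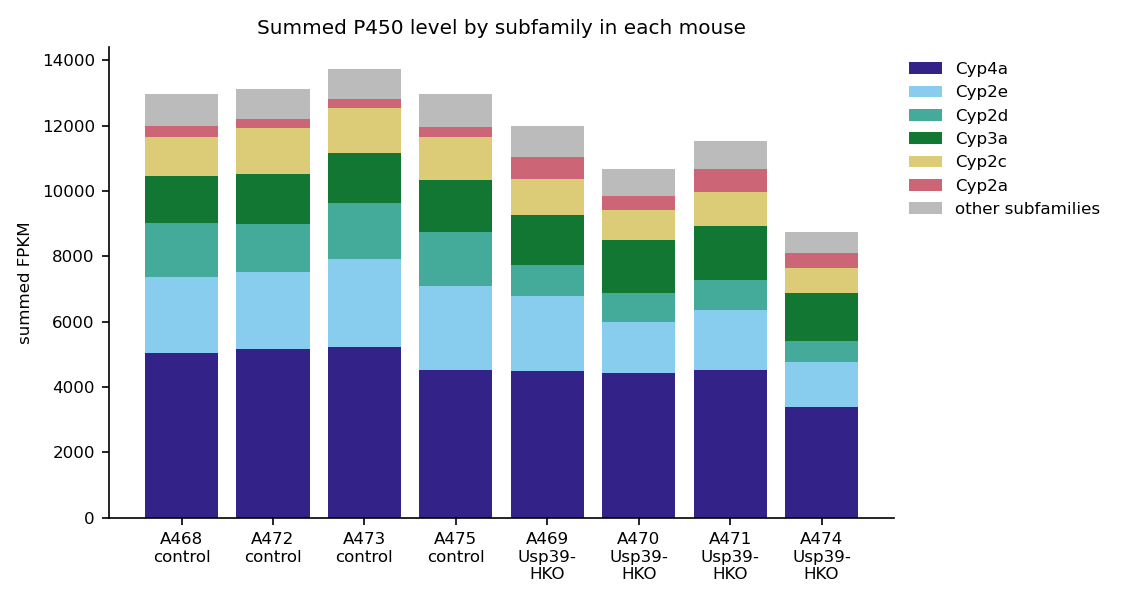
Summed FPKM of the P450 members in each mouse, stacked by subfamily from 0. The controls lie between 12968 and 13725 and the *Usp39*-HKO mice between 8763 and 11997, with the smallest *Cyp4a* and *Cyp2e* segments in A474.

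Family 1 is under the aryl hydrocarbon receptor. *Cyp1a2* (ENSMUSG00000032310, chromosome 9, 57676937 to 57683703, minus strand), which oxidizes caffeine and aromatic amines, had 199 ± 15.8 FPKM in controls and 171 ± 23.4 FPKM in *Usp39*-HKO mice (mean ± SD, n = 4 mice, as in all values below). *Cyp1a2* fell by 0.44 on the log2 scale (SE 0.14, adjusted p = 0.0397), and the groups overlapped. *Cyp1a2* lost its call without scaling (-0.21), with limma (-0.22), with the filter at a mean FPKM of 5 (-0.36) and when A468, A473, A475, A470, A471 or A474 was left out (adjusted p between 0.0696 and 0.205). *Cyp1a1*, which the receptor induces most strongly, stayed under the filter, with 0.156 to 0.482 FPKM in controls and 0.317 to 0.53 FPKM in *Usp39*-HKO mice. *Cyp1b1* (ENSMUSG00000024087, chromosome 17, 79701537 to 79715061, minus strand), which hydroxylates oestradiol and polycyclic hydrocarbons, had 0.373, 0.484, 0.498 and 0.296 FPKM in controls and 1.09, 2.07, 1.09 and 2.51 FPKM in *Usp39*-HKO mice. All *Usp39*-HKO mice were above all controls, but the levels were low, with 18 to 139 counts per mouse. *Cyp1b1* rose by 1.78 on the log2 scale (SE 0.29, adjusted p = 0.00242). It passed the filter through the *Usp39*-HKO mice alone.

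Among the *Cyp2a* and *Cyp2b* genes, which share a cluster on chromosome 7, 2 of 6 tested members rose and 4 were not called. Of all genes 10.9% rose. *Cyp2a4* (ENSMUSG00000074254, chromosome 7, 26307169 to 26315088, plus strand), a testosterone hydroxylase of female mouse liver, had 14, 17, 11.5 and 10.7 FPKM in controls and 208, 91.8, 212 and 113 FPKM in *Usp39*-HKO mice. The lowest *Usp39*-HKO mouse was far above the highest control. *Cyp2a4* rose by 3.34 on the log2 scale (SE 0.31, adjusted p = 0.000225). It made up 4.56 ± 1.1% of the summed *Cyp2a* FPKM among controls and 26.7 ± 3.98% among *Usp39*-HKO livers. *Cyp2a5*, the coumarin hydroxylase, had 132, 55.6, 74.9 and 90.8 FPKM in controls and 179, 118, 278 and 167 FPKM in *Usp39*-HKO mice. Control A468 lay above A470, and the gene was not called (log2 fold change 0.84, SE 0.29, adjusted p = 0.0582). Without a filter *Cyp2a5* was called higher (0.82, adjusted p = 0.00876). The whole *Cyp2a4* transcript matches *Cyp2a5* over stretches of at least 150 bases at 97% identity or more, so reads could be split between them. Their summed counts rose from 206 ± 66.6 to 655 ± 234 CPM (log2 fold change 1.44, SE 0.29, adjusted p = 0.00541). *Cyp2a12*, another testosterone hydroxylase, was the most abundant *Cyp2a* gene in controls and had 183 ± 4.54 FPKM in controls and 200 ± 29.8 FPKM in *Usp39*-HKO mice (log2 fold change -0.09, SE 0.15, adjusted p = 0.695). The sign of that value turned without scaling and with limma. *Cyp2a22* had 7.55 ± 4.61 FPKM in controls and 26.4 ± 23.8 FPKM in *Usp39*-HKO mice, where A469 alone had 62 FPKM (log2 fold change 1.61, SE 0.57, adjusted p = 0.0638). It was called higher without a filter (1.59, adjusted p = 0.00362).

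*Cyp2b10* (ENSMUSG00000030483, chromosome 7, 25897620 to 25926624, plus strand), the classic target of the receptor CAR, had 3.82, 2.2, 9.32 and 9.86 FPKM in controls and 112, 16.2, 18.8 and 43.8 FPKM in *Usp39*-HKO mice. Every *Usp39*-HKO mouse was above every control, and A469 stood highest by far. *Cyp2b10* rose by 2.72 on the log2 scale (SE 0.65, adjusted p = 0.0126). Without A469 the log2 fold change was 1.78 (adjusted p = 0.0139). *Cyp2b9*, the most abundant *Cyp2b* gene and female-biased, had 15, 29, 18.7 and 72.6 FPKM in controls and 136, 45.6, 27.8 and 63 FPKM in *Usp39*-HKO mice. The groups overlapped, with control A475 above all *Usp39*-HKO mice but A469 (log2 fold change 0.81, SE 0.53, adjusted p = 0.308). The log2 fold change was 1.49 without A475 and 0.17 without A469. *Cyp2b13*, also female-biased, was not tested. Its level was 0, 0, 0 and 0.461 FPKM in controls and 16.4, 0.105, 0.447 and 1.52 FPKM in *Usp39*-HKO mice. A469 was again the highest mouse, and 3 of the 4 controls had no count. *Cyp2b19* had 1 count in all.

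*Cyp2c* members oxidize arachidonic acid and drugs, and they were the largest subfamily, with 15 genes. Of the 13 tested, 7 fell, 2 rose and 4 were not called, while 11.6% of all genes fell and 10.9% rose. The risers lie at the ends of the cluster on chromosome 19 and the fallen members between them. *Cyp2c55* (ENSMUSG00000025002, chromosome 19, 39007019 to 39042693, plus strand), at one end, had 0.328, 0.657, 0.175 and 0.433 FPKM in controls and 1.55, 4.38, 7.99 and 6.66 FPKM in *Usp39*-HKO mice. The groups did not overlap, yet a control mouse had as few as 3 counts. *Cyp2c55* rose by 3.39 on the log2 scale (SE 0.50, adjusted p = 0.00144). At the other end, *Cyp2c70* (ENSMUSG00000060613, chromosome 19, 40153353 to 40187333, minus strand), the enzyme that makes muricholic acids in mice, had 13.9, 35.5, 17.6 and 20.2 FPKM in controls and 83.4, 45.3, 61.2 and 40.3 FPKM in *Usp39*-HKO mice. All *Usp39*-HKO mice were above all controls. *Cyp2c70* rose by 1.19 on the log2 scale (SE 0.31, adjusted p = 0.0183). *Cyp2c70* lost its call when A468, A473 or A475 was left out (adjusted p between 0.0527 and 0.0603).

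**Figure D3:**
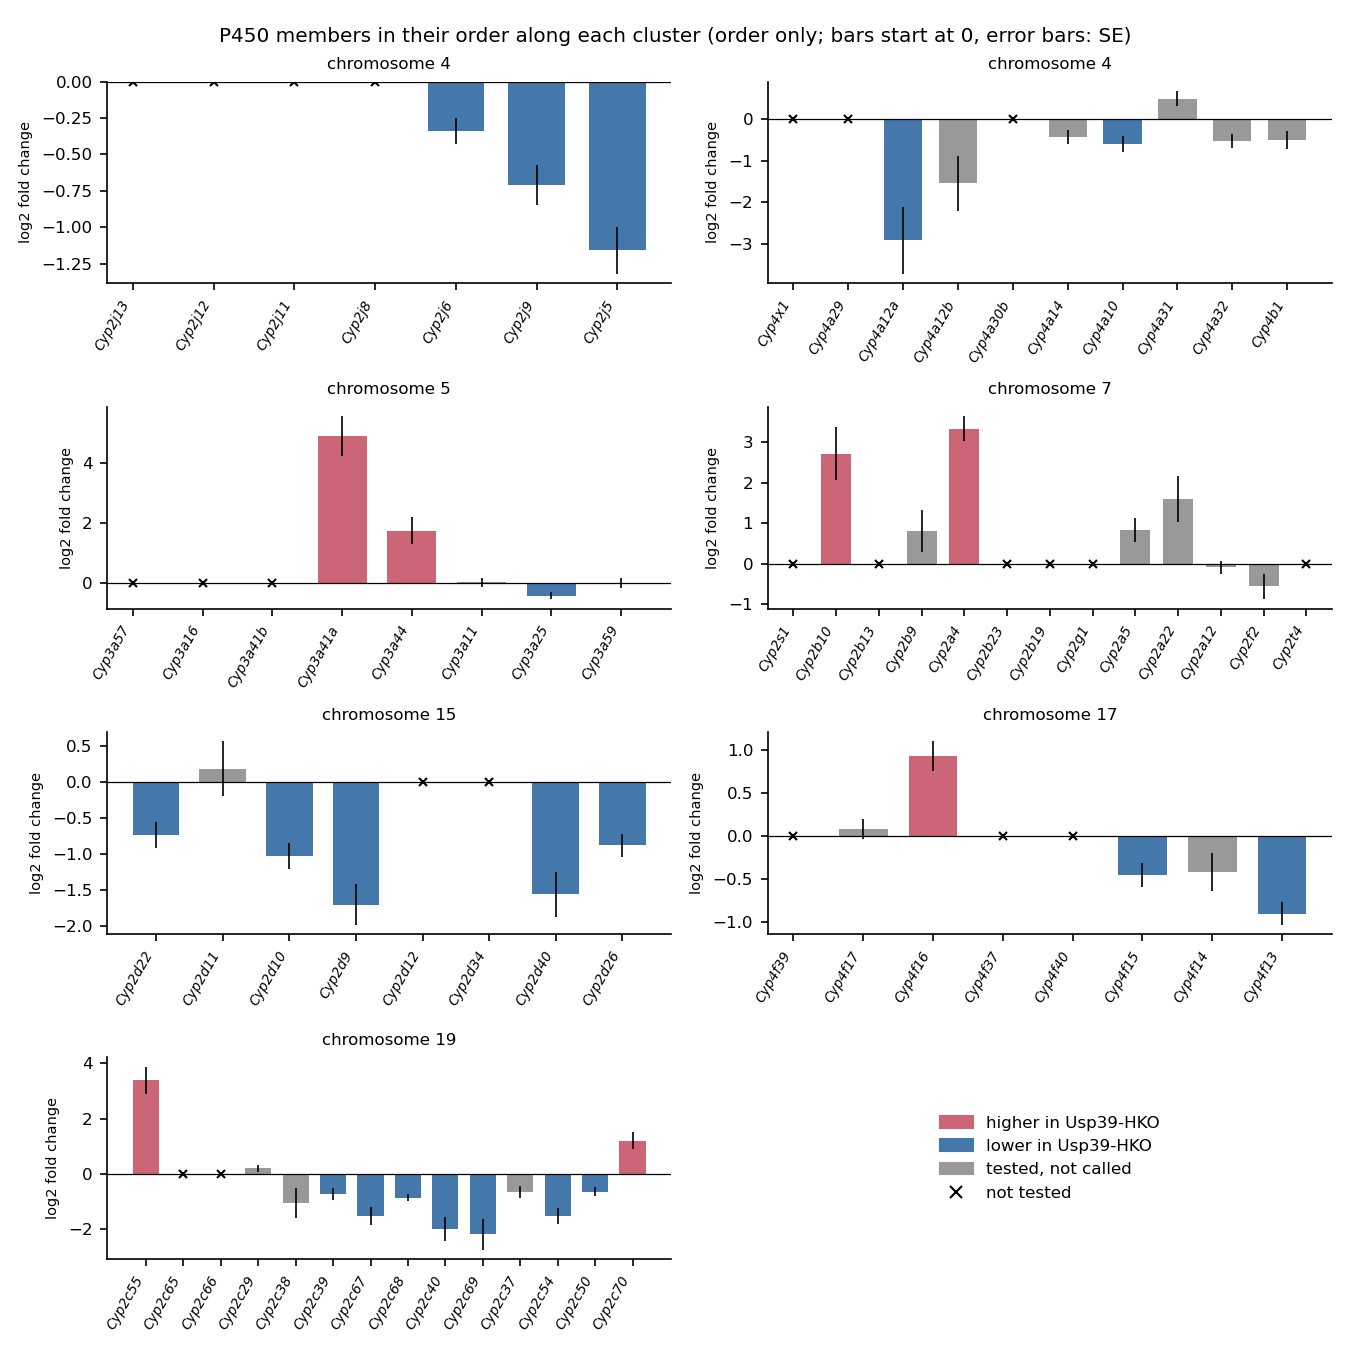
Log2 fold change with its SE (bars from 0) for the members of each cluster of at least 4, in their order along the chromosome and not to scale. Crosses are members not tested. On chromosome 19 *Cyp2c55* (3.39) and *Cyp2c70* (1.19) stand at the ends, and 7 called members between them lie below 0.

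*Cyp2c69* (ENSMUSG00000092008, chromosome 19, 39842814 to 39886799, minus strand) had 18, 74.8, 21.4 and 25.3 FPKM in controls and 15.7, 9.65, 7.55 and 2.04 FPKM in *Usp39*-HKO mice. The groups did not overlap, and control A472 was well above the other controls. *Cyp2c69* fell by 2.2 on the log2 scale (SE 0.57, adjusted p = 0.018), and without A472 the log2 fold change was -1.50 (adjusted p = 0.0445). *Cyp2c40* (ENSMUSG00000025004, chromosome 19, 39767071 to 39812814, minus strand), an arachidonic acid hydroxylase, had 49.4, 107, 66.5 and 60.7 FPKM in controls and 31.4, 16.5, 27.4 and 6.21 FPKM in *Usp39*-HKO mice. Again the groups did not overlap, and A474 was lowest. *Cyp2c40* fell by 2.0 on the log2 scale (SE 0.43, adjusted p = 0.00765). *Cyp2c67* (ENSMUSG00000062624, chromosome 19, 39608842 to 39649051, minus strand) had 69.7, 63, 66.5 and 53.5 FPKM in controls and 17.9, 26.6, 45 and 12.2 FPKM in *Usp39*-HKO mice. All *Usp39*-HKO mice were below the lowest control, and A474 was again lowest. *Cyp2c67* fell by 1.53 on the log2 scale (SE 0.32, adjusted p = 0.00726). *Cyp2c68* had 188 ± 25.3 FPKM in controls and 120 ± 9.04 FPKM in *Usp39*-HKO mice and fell by 0.87 on the log2 scale (SE 0.13, adjusted p = 0.00174). Of these 4 genes, *Cyp2c67*, *Cyp2c68* and *Cyp2c69* each match another along the whole transcript, and *Cyp2c40* matches *Cyp2c67* along 96.1%. The split of reads among the 4 genes is uncertain. Their summed counts fell from 638 ± 138 to 308 ± 61.7 CPM (log2 fold change -1.27, SE 0.20, adjusted p = 0.00206).

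*Cyp2c54* (ENSMUSG00000067225, chromosome 19, 40037940 to 40073827, minus strand) shares no such stretch with another gene. Its level was 212, 206, 242 and 218 FPKM in controls and 113, 87.4, 113 and 39.3 FPKM in *Usp39*-HKO mice. The 4 controls lay within a narrow range, and A474 was far below the other *Usp39*-HKO mice. *Cyp2c54* fell by 1.52 on the log2 scale (SE 0.29, adjusted p = 0.00452). It made up 16.6 ± 1.56% of the summed *Cyp2c* FPKM among controls and 8.96 ± 2.58% among *Usp39*-HKO livers. *Cyp2c50*, the most abundant *Cyp2c* gene in controls, had 265 ± 11.9 FPKM in controls and 196 ± 35.2 FPKM in *Usp39*-HKO mice and fell by 0.65 on the log2 scale (SE 0.16, adjusted p = 0.0153). *Cyp2c39*, known to hydroxylate retinoic acid, had 6.31 ± 1.89 FPKM in controls and 4.43 ± 0.865 FPKM in *Usp39*-HKO mice and fell by 0.74 on the log2 scale (SE 0.23, adjusted p = 0.0357). *Cyp2c50* lost its call when A473 was left out (adjusted p = 0.0507). *Cyp2c39* lost its call without scaling (-0.51), with limma (-0.41), with the filter at a mean FPKM of 5 (-0.66) and when A473, A475, A470, A471 or A474 was left out (adjusted p between 0.0664 and 0.142). *Cyp2c23*, *Cyp2c29*, *Cyp2c37* and *Cyp2c38* were not called. *Cyp2c29*, a target of CAR and PXR, had 122, 150, 121 and 124 FPKM in controls and 191, 154, 188 and 158 FPKM in *Usp39*-HKO mice. These FPKM did not overlap, but relative to the median gene the difference was small (log2 fold change 0.19, SE 0.14, adjusted p = 0.359).

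**Figure D4:**
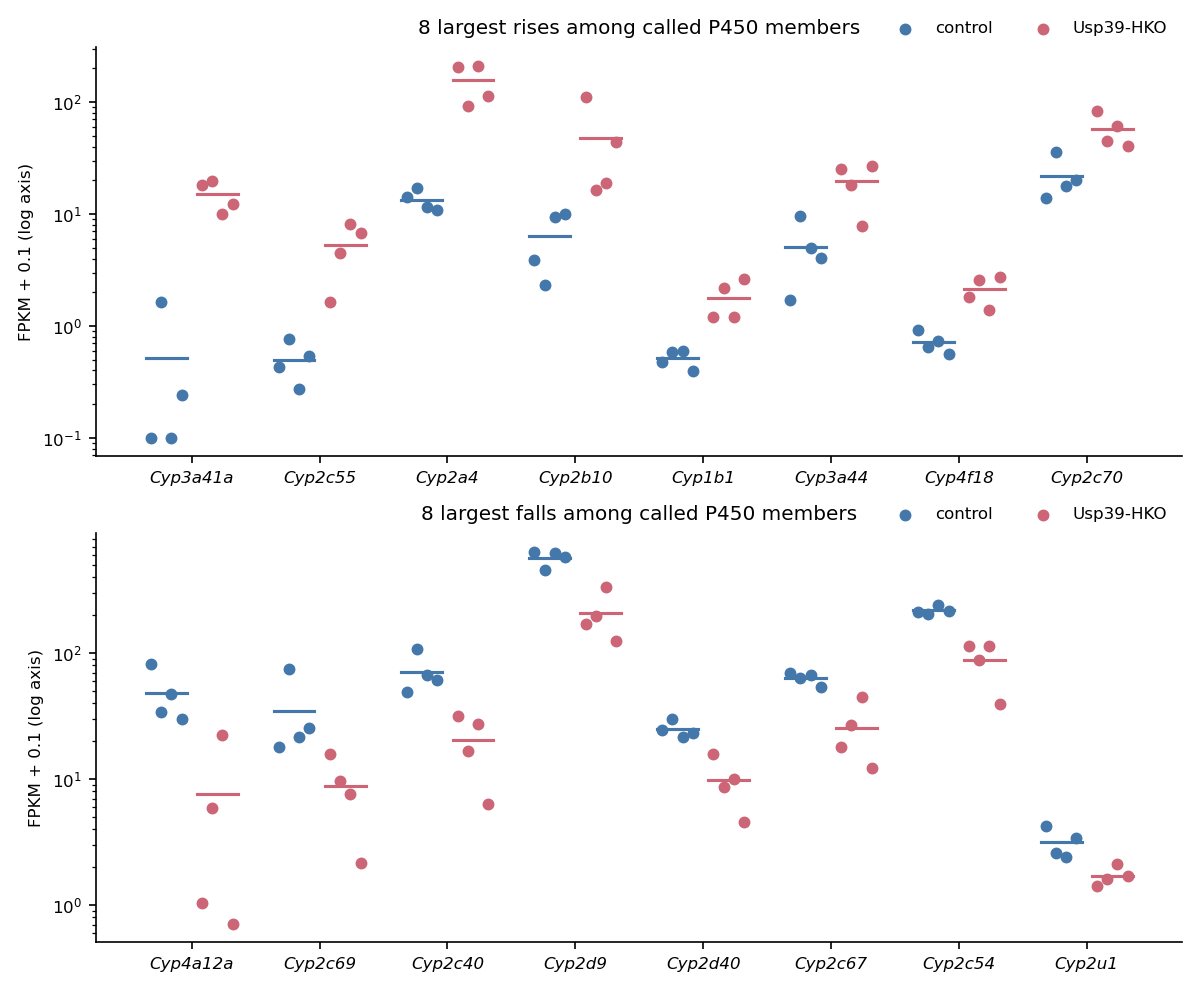
FPKM + 0.1 on a log axis in each mouse, with lines for group means, for the 8 largest rises and the 8 largest falls among called members. *Cyp3a44* overlaps between the groups, with control A472 (9.51) above *Usp39*-HKO mouse A471 (7.75). The genes were chosen by the size of their called change, so separate groups follow in part from the choice.

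Of the *Cyp2d* genes 5 of 6 tested members fell, beside 11.6% of all genes, and the other was not called. *Cyp2d9* (ENSMUSG00000068086, chromosome 15, 82433437 to 82456845, plus strand), the male-biased testosterone hydroxylase, was the most abundant of them in controls, with 640, 456, 624 and 577 FPKM in controls and 170, 198, 333 and 125 FPKM in *Usp39*-HKO mice. The groups were wide apart, and A471 kept the highest level of the *Usp39*-HKO mice. *Cyp2d9* fell by 1.70 on the log2 scale (SE 0.28, adjusted p = 0.00221). *Cyp2d10* (ENSMUSG00000094806, chromosome 15, 82402846 to 82407195, minus strand) had 518, 479, 565 and 548 FPKM in controls and 360, 321, 301 and 218 FPKM in *Usp39*-HKO mice. Here too no value of one group reached into the other. *Cyp2d10* fell by 1.03 on the log2 scale (SE 0.18, adjusted p = 0.00291). *Cyp2d26* (ENSMUSG00000022445, chromosome 15, 82790101 to 82794294, minus strand) had 400, 442, 428 and 442 FPKM in controls and 337, 284, 218 and 249 FPKM in *Usp39*-HKO mice. A471 was lowest, in contrast to *Cyp2d9*. *Cyp2d26* fell by 0.88 on the log2 scale (SE 0.16, adjusted p = 0.0034). *Cyp2d40* (ENSMUSG00000068083, chromosome 15, 82759833 to 82764183, minus strand) had 24.3, 29.9, 21.5 and 23 FPKM in controls and 15.8, 8.48, 9.93 and 4.44 FPKM in *Usp39*-HKO mice. A474 was lowest and the groups did not overlap. *Cyp2d40* fell by 1.56 on the log2 scale (SE 0.31, adjusted p = 0.00586). *Cyp2d22*, held to be the mouse gene closest to human CYP2D6 in function, had 74.6 ± 12.7 FPKM in controls and 52.2 ± 10.1 FPKM in *Usp39*-HKO mice and fell by 0.74 on the log2 scale (SE 0.18, adjusted p = 0.0129). *Cyp2d11* was near the filter, at 0.545 ± 0.0714 FPKM in controls, and was not called.

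Among the smaller *Cyp2* subfamilies *Cyp2e1*, *Cyp2u1* and the 3 tested *Cyp2j* members fell, and *Cyp2f2* and *Cyp2r1* were not called. Of all genes 11.6% fell. *Cyp2e1* (ENSMUSG00000025479, chromosome 7, 140763739 to 140774987, plus strand), the ethanol and acetaminophen oxidase of hepatocytes around the central vein, had 2328, 2358, 2684 and 2549 FPKM in controls and 2307, 1591, 1860 and 1364 FPKM in *Usp39*-HKO mice. A469 lay just under the lowest control and A474 far below. *Cyp2e1* fell by 0.70 on the log2 scale (SE 0.20, adjusted p = 0.0286). *Cyp2e1* lost its call with limma (-0.50) and when A468, A473, A475, A470 or A471 was left out (adjusted p between 0.0548 and 0.0826). *Cyp2j* genes epoxidize arachidonic acid, and all 3 tested members fell, beside 11.6% of all genes. *Cyp2j5*, the most abundant, had 171 ± 16 FPKM in controls and 89.4 ± 17.4 FPKM in *Usp39*-HKO mice and fell by 1.16 on the log2 scale (SE 0.16, adjusted p = 0.00119). *Cyp2j9* fell by 0.71 on the log2 scale (SE 0.14, adjusted p = 0.0055) and *Cyp2j6* fell by 0.34 on the log2 scale (SE 0.09, adjusted p = 0.0234). *Cyp2j9* lost its call with limma (-0.38, adjusted p = 0.0558). *Cyp2j6* lost its call without scaling (-0.10), with limma (-0.09) and when A468, A473, A475 or A474 was left out (adjusted p between 0.053 and 0.501). On chromosome 4 the 3 tested *Cyp2j* genes stand side by side, and the other 4 had between 0 and 6 counts per mouse. *Cyp2u1* (ENSMUSG00000027983, chromosome 3, 131288441 to 131303227, minus strand), a fatty acid hydroxylase, had 4.18, 2.48, 2.29 and 3.28 FPKM in controls and 1.32, 1.5, 2 and 1.59 FPKM in *Usp39*-HKO mice. Levels were low but the groups did not overlap. *Cyp2u1* fell by 1.17 on the log2 scale (SE 0.21, adjusted p = 0.00336). *Cyp2f2*, which oxidizes naphthalene, had 228 ± 38.5 FPKM in controls and 180 ± 87.8 FPKM in *Usp39*-HKO mice and was not called (log2 fold change -0.56, SE 0.32, adjusted p = 0.237). *Cyp2r1*, a vitamin D hydroxylase, had 4.79 ± 1.09 FPKM in controls and 4.36 ± 0.957 FPKM in *Usp39*-HKO mice and was not called either (log2 fold change -0.37, SE 0.20, adjusted p = 0.218). *Cyp2g1*, *Cyp2s1*, *Cyp2t4* and *Cyp2w1* were not tested. *Cyp2s1* had 0.0613 to 0.118 FPKM in controls and 0.167 to 0.722 FPKM in *Usp39*-HKO mice.

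In the *Cyp3a* subfamily 2 genes of female liver rose, *Cyp3a13* and *Cyp3a25* fell, and *Cyp3a11* and *Cyp3a59* were not called. Of all genes 10.9% rose and 11.6% fell. *Cyp3a41a* (ENSMUSG00000075551, chromosome 5, 145694049 to 145720136, minus strand) had 0, 1.52, 0 and 0.14 FPKM in controls and 18.1, 19.8, 9.87 and 12.1 FPKM in *Usp39*-HKO mice. The controls were at or near 0, and A472 was the highest of them. *Cyp3a41a* rose by 4.88 on the log2 scale (SE 0.67, adjusted p = 0.0011), and without A472 the log2 fold change was 7.81 (adjusted p = 0.000158). Its neighbour *Cyp3a41b*, which matches it along the whole transcript, was not tested and had 0, 0, 0.282 and 0.186 FPKM in controls and 9.52, 0.618, 0.102 and 26.5 FPKM in *Usp39*-HKO mice. A474 and A469 carried nearly all of it. The counts of both copies together were 1.1 ± 1.37 CPM in controls and 49.8 ± 24.9 CPM in *Usp39*-HKO livers (log2 fold change 5.21, SE 0.61, adjusted p = 0.000577). *Cyp3a44* (ENSMUSG00000054417, chromosome 5, 145773983 to 145805874, minus strand) had 1.61, 9.51, 4.92 and 3.96 FPKM in controls and 25.3, 18.2, 7.75 and 26.5 FPKM in *Usp39*-HKO mice. Control A472 was above A471, and the other *Usp39*-HKO mice were above all controls. *Cyp3a44* rose by 1.72 on the log2 scale (SE 0.45, adjusted p = 0.0198). *Cyp3a44* lost its call when A473, A475 or A474 was left out (adjusted p between 0.0515 and 0.0636). *Cyp3a16*, not tested, had 0.063, 0, 0 and 0 FPKM in controls and 3.33, 0.454, 0.303 and 13.7 FPKM in *Usp39*-HKO mice. A474 was highest, and the controls held 1 count together.

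*Cyp3a11* (ENSMUSG00000056035, chromosome 5, 145854426 to 145879964, minus strand), the main drug oxidase under the receptor PXR, had 774, 714, 738 and 693 FPKM in controls and 772, 938, 987 and 753 FPKM in *Usp39*-HKO mice. The groups overlapped, and relative to the median gene there was next to no difference (log2 fold change 0.01, SE 0.15, adjusted p = 0.97). *Cyp3a25* (ENSMUSG00000029630, chromosome 5, 145977194 to 146009618, minus strand) had 519, 619, 573 and 622 FPKM in controls and 501, 513, 489 and 514 FPKM in *Usp39*-HKO mice. The *Usp39*-HKO mice lay close together, just below the lowest control. *Cyp3a25* fell by 0.44 on the log2 scale (SE 0.12, adjusted p = 0.0195). Part of its transcript (25.4%) matches *Cyp3a59*, which was not called (log2 fold change -0.01, SE 0.17, adjusted p = 0.978), and the 2 summed gave a log2 fold change of -0.39 (SE 0.12, adjusted p = 0.0348). *Cyp3a13*, which lies apart from the cluster, had 145 ± 60 FPKM in controls and 75.5 ± 28.7 FPKM in *Usp39*-HKO mice and fell by 1.15 on the log2 scale (SE 0.33, adjusted p = 0.0281). Its controls ranged from 79.2 to 202 FPKM. *Cyp3a25* lost its call without scaling (-0.21), with limma (-0.21) and when A473, A475 or A471 was left out (adjusted p between 0.0503 and 0.16). *Cyp3a13* lost its call with limma (-0.90) and when A473, A475, A470, A471 or A474 was left out (adjusted p between 0.0618 and 0.0882). *Cyp3a57* had 1 to 13 counts per mouse.

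Family 4 hydroxylates fatty acids. *Cyp4a14* (ENSMUSG00000028715, chromosome 4, 115486200 to 115496142, minus strand), a PPARA target and the most abundant member of all in controls, had 2695, 2958, 2902 and 2456 FPKM in controls and 2647, 2388, 2540 and 2012 FPKM in *Usp39*-HKO mice. The groups overlapped and it was not called (log2 fold change -0.43, SE 0.17, adjusted p = 0.0964), though DESeq2 called it lower (-0.42, adjusted p = 0.0203). *Cyp4a10* (ENSMUSG00000066072, chromosome 4, 115518264 to 115533649, plus strand), also under PPARA, had 1954, 1890, 1935 and 1779 FPKM in controls and 1579, 1618, 1566 and 1027 FPKM in *Usp39*-HKO mice. A469, A470 and A471 were almost level, and A474 was well below them. *Cyp4a10* fell by 0.61 on the log2 scale (SE 0.19, adjusted p = 0.0381). *Cyp4a10* lost its call without scaling (-0.38), with limma (-0.41) and when A468, A472, A473, A475 or A471 was left out (adjusted p between 0.0605 and 0.094). *Cyp4a32* matches *Cyp4a10* along its whole transcript and had 137 ± 25.7 FPKM in controls and 111 ± 18.4 FPKM in *Usp39*-HKO mice, just short of a call (log2 fold change -0.52, SE 0.17, adjusted p = 0.0502). The pair summed gave a log2 fold change of -0.60 (SE 0.19, adjusted p = 0.0376). *Cyp4a31* had 138 ± 25.3 FPKM in controls and 230 ± 61.4 FPKM in *Usp39*-HKO mice and was not called (log2 fold change 0.49, SE 0.19, adjusted p = 0.0858).

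*Cyp4a12a* (ENSMUSG00000066071, chromosome 4, 115299046 to 115332815, plus strand), the male-biased hydroxylase of arachidonic acid, had the largest fall of all members, with 81.4, 34, 47.7 and 30.1 FPKM in controls and 0.935, 5.75, 22.5 and 0.61 FPKM in *Usp39*-HKO mice. A469 and A474 were near 1 FPKM, whereas A471 lay close to the controls. *Cyp4a12a* fell by 2.92 on the log2 scale (SE 0.81, adjusted p = 0.0248). *Cyp4a12a* lost its call when A468, A473 or A470 was left out (adjusted p between 0.0554 and 0.0687). Without A471 the log2 fold change was -4.53 (adjusted p = 0.00248). Its near copy *Cyp4a12b* had 36.8, 17.9, 24.1 and 16.2 FPKM in controls and 1.72, 9.58, 24.6 and 1.94 FPKM in *Usp39*-HKO mice. The same 2 mice were lowest, and A471 was above 3 of the controls (log2 fold change -1.55, SE 0.66, adjusted p = 0.118). Without a filter *Cyp4a12b* was called lower (-1.57, adjusted p = 0.0119). Summed, the 2 copies had 174 ± 78.8 CPM in controls and 40.7 ± 50.6 in *Usp39*-HKO livers (log2 fold change -2.32, SE 0.76, adjusted p = 0.0475). *Cyp4b1* had 12 ± 1.84 FPKM in controls and 9.82 ± 2.87 FPKM in *Usp39*-HKO mice and was not called (log2 fold change -0.51, SE 0.21, adjusted p = 0.099). It was called lower without A469 (-0.76, adjusted p = 0.00326) and without a filter (-0.54, adjusted p = 0.0397).

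The *Cyp4f* genes, which break down leukotrienes and other fatty acids, moved both ways, with 2 of 6 tested members higher and 2 lower. Of all genes 10.9% were higher and 11.6% lower. *Cyp4f18* (ENSMUSG00000003484, chromosome 8, 71988482 to 72009626, minus strand), known from myeloid cells, had 0.822, 0.544, 0.628 and 0.466 FPKM in controls and 1.72, 2.49, 1.3 and 2.62 FPKM in *Usp39*-HKO mice. The groups did not overlap, at 9 to 47 counts per mouse. *Cyp4f18* rose by 1.48 on the log2 scale (SE 0.30, adjusted p = 0.00569). Some of its exon bases (9.76%) lie opposite another gene, as do 10.5% for *Cyp2u1*, 3.51% for *Cyp2a4*, 3.21% for *Cyp2c55* and, not called, 13.5% for *Cyp2f2*. Exons of *Cyp2d9* (9.26%), *Cyp4v3* (8.22%) and *Cyp2d10* (3.64%) overlap genes of the same strand. Whether strand was kept in counting is not given in the sources used here. *Cyp4f16* had 2.23 ± 0.442 FPKM in controls and 5.04 ± 0.897 FPKM in *Usp39*-HKO mice and rose by 0.93 on the log2 scale (SE 0.17, adjusted p = 0.00404). *Cyp4f13* had 17.5 ± 1.01 FPKM in controls and 10.9 ± 1.48 FPKM in *Usp39*-HKO mice and fell by 0.90 on the log2 scale (SE 0.13, adjusted p = 0.00131). *Cyp4f15*, the most abundant *Cyp4f* gene, had 79.7 ± 12.8 FPKM in controls and 68.8 ± 9.35 FPKM in *Usp39*-HKO mice and fell by 0.45 on the log2 scale (SE 0.14, adjusted p = 0.0429). *Cyp4v3*, a fatty acid hydroxylase, had 107 ± 18.5 FPKM in controls and 81.9 ± 13.5 FPKM in *Usp39*-HKO mice and fell by 0.62 on the log2 scale (SE 0.16, adjusted p = 0.0188). *Cyp4f15* lost its call without scaling (-0.21), with limma (-0.21), with the filter at a mean FPKM of 5 (-0.37) and when A468, A473, A475, A469, A470 or A474 was left out (adjusted p between 0.0593 and 0.309). *Cyp4v3* lost its call without scaling (-0.38), with limma (-0.38) and when A468, A473, A475 or A474 was left out (adjusted p between 0.0509 and 0.107). *Cyp4f14* and *Cyp4f17* were not called, *Cyp4f39* had 7 to 20 counts per mouse, and *Cyp4f37*, *Cyp4x1* and *Cyp4a30b* had 1 count each.

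Of the 11 tested members known as sex-biased 9 were called (81.8%), beside 63% of tested members and 22.5% of all genes. *Cyp3a41a*, one of them, reached the FPKM minimum in 1 control and 4 *Usp39*-HKO mice. It thus passed the filter mainly through the group where it is high. Of 10 female-biased members 7 were tested, and *Cyp2a4*, *Cyp2b10*, *Cyp3a41a* and *Cyp3a44* rose, *Cyp2c40* and *Cyp2c69* fell, and *Cyp2b9* was not called. The called female-biased genes thus moved both ways. Reads of *Cyp2c40* and *Cyp2c69*, and of *Cyp2a4* and *Cyp3a41a* among the risers, may be split among near copies. Summed with *Cyp2c67* and *Cyp2c68*, the 2 fallen genes had a log2 fold change of -1.27. With its copy added, the value was 1.44 for *Cyp2a4* and 5.21 for *Cyp3a41a*. The median log2 fold change of the 7 tested was 1.72, and the FPKM of all 10 added up to 165 ± 61.2 among controls and 354 ± 154 among *Usp39*-HKO mice. The sums overlapped, with control A472 (241) above A470 (219). A469 had 575, against 219 to 312 in the other *Usp39*-HKO mice. Of the 4 male-biased members *Cyp2d9*, *Cyp4a12a* and *Cyp2u1* fell and *Cyp4a12b* was not called. The median of these 4 was -1.62, and their FPKM summed to 649 ± 108 in controls and 225 ± 110 in *Usp39*-HKO mice.

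Of the 3 targets of the aryl hydrocarbon receptor, *Cyp1a2* fell, *Cyp1a1* was not tested, and *Cyp1b1* rose but reached the FPKM minimum in *Usp39*-HKO mice alone. Of the 5 targets of CAR or PXR, *Cyp2b10* and *Cyp2c55* rose, the latter at the minimum in 1 control, and *Cyp2a5*, *Cyp2c29* and *Cyp3a11* were not called. Of the 4 PPARA targets, *Cyp4a10* fell and the other 3 were not called. DESeq2 called *Cyp4a14* lower (-0.42, adjusted p = 0.0203), and edgeR without a filter called *Cyp4a32* lower (-0.55, adjusted p = 0.0154). In all, 5 of these 11 tested members were called (45.5%), beside 63% of tested members and 22.5% of all genes. That number was 3 without control A473 or control A475 and 9 with DESeq2. At a mean FPKM of at least 5, 2 of 9 tested members were called.

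Of the 25 members called lower, A474 had the lowest FPKM of the *Usp39*-HKO mice in 16, A469 in 4, A471 in 4 and A470 in 1. Among the 9 called higher, A474 was highest in 4, A469 and A471 in 2 each and A470 in 1. Without A474, 19 members were still called lower and 8 higher. How often A474 was lowest among all genes called lower was not examined, and near copies were counted singly.

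P450 genes outside families 1 to 4 make bile acids, steroids and retinoid products. Of 21 such genes 12 were tested, 5 fell and 1 rose (50%, beside 22.5% of all genes), with a median log2 fold change of -0.06. *Cyp7b1*, an oxysterol hydroxylase, had 26.4, 8.85, 20.2 and 13 FPKM in controls and 2.95, 2.76, 3.58 and 2.34 FPKM in *Usp39*-HKO mice. Every *Usp39*-HKO mouse lay below every control, and the controls ranged from 8.85 to 26.4 FPKM. *Cyp7b1* fell by 2.79 on the log2 scale (SE 0.32, adjusted p = 0.000567). *Cyp7a1*, the rate-limiting enzyme of bile acid synthesis, had 39.7 ± 16.4 FPKM in controls and 14.5 ± 9.78 FPKM in *Usp39*-HKO mice and fell by 1.68 on the log2 scale (SE 0.42, adjusted p = 0.0164). *Cyp8b1*, which makes cholic acid, had 634 ± 81.6 FPKM in controls and 328 ± 115 FPKM in *Usp39*-HKO mice and fell by 1.18 on the log2 scale (SE 0.23, adjusted p = 0.00492). *Cyp27a1*, the first enzyme of the other route to bile acids, had 190 ± 11.6 FPKM in controls and 91.3 ± 21.7 FPKM in *Usp39*-HKO mice and fell by 1.28 on the log2 scale (SE 0.18, adjusted p = 0.0012). *Cyp39a1*, an oxysterol hydroxylase too, fell by 0.55 on the log2 scale (SE 0.17, adjusted p = 0.0364). *Ptgis*, the prostacyclin synthase, had 0.867 ± 0.237 FPKM in controls and 2.31 ± 0.835 FPKM in *Usp39*-HKO mice and rose by 1.16 on the log2 scale (SE 0.31, adjusted p = 0.0206). *Cyp7a1* lost its call when A473 was left out (adjusted p = 0.0535). *Cyp39a1* lost its call without scaling (-0.32), with limma (-0.33), with the filter at a mean FPKM of 5 (-0.47) and when A468, A473, A475, A470, A471 or A474 was left out (adjusted p between 0.0518 and 0.178). *Ptgis* lost its call when A473, A475, A471 or A474 was left out (adjusted p between 0.0507 and 0.0624). Without control A473, 3 of the 12 were called. *Cyp17a1*, *Cyp20a1*, *Cyp26a1*, *Cyp26b1*, *Cyp51* and *Tbxas1* were tested and not called.

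Of 13 enzymes that serve P450s 3 fell and 1 rose (30.8%, beside 22.5% of all genes), and the median log2 fold change was -0.10. *Por*, the electron donor of all microsomal P450s, had 218 ± 35.7 FPKM in controls and 255 ± 37.5 FPKM in *Usp39*-HKO mice and was not called (SE 0.17, adjusted p = 1). *Cyb5a*, *Cyb5b*, *Cyb5r3*, *Pgrmc1*, *Pgrmc2* and *Fdx1*, which donate electrons or bind P450s, were not called either. *Ephx2*, the epoxide hydrolase that acts on the fatty acid epoxides of *Cyp2c* and *Cyp2j* enzymes, had 594 ± 60.9 FPKM in controls and 371 ± 38.3 FPKM in *Usp39*-HKO mice and fell by 0.91 on the log2 scale (SE 0.14, adjusted p = 0.00189). *Ephx1*, the microsomal epoxide hydrolase, had 219 ± 46.3 FPKM in controls and 360 ± 98.5 FPKM in *Usp39*-HKO mice without a call (log2 fold change 0.48, SE 0.21, adjusted p = 0.117). For haem, *Alas1*, the liver's first enzyme of its synthesis, had 111 ± 21.9 FPKM in controls and 177 ± 29.9 FPKM in *Usp39*-HKO mice and was not called (log2 fold change 0.45, SE 0.18, adjusted p = 0.0976). *Alas2*, the form of red blood cell precursors, fell by 1.72 on the log2 scale (SE 0.31, adjusted p = 0.00373), while *Hmox1*, which breaks haem down, had 26.5 ± 1.96 FPKM in controls and 61.4 ± 24.9 FPKM in *Usp39*-HKO mice and rose by 0.96 on the log2 scale (SE 0.18, adjusted p = 0.0046). *Fdxr*, the mitochondrial ferredoxin reductase, fell by 0.64 on the log2 scale (SE 0.20, adjusted p = 0.0394). *Fdxr* lost its call without scaling (-0.42), with limma (-0.36), with the filter at a mean FPKM of 5 (-0.56) and when A472, A473, A475, A470, A471 or A474 was left out (adjusted p between 0.0631 and 0.14).

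Of 25 transcription factors known to act on P450 genes, 23 were tested, 9 fell and 2 rose (47.8%, beside 22.5% of all genes), with a median log2 fold change of -0.23. *Nr1i3*, which encodes CAR, had 9.4, 13.2, 10.2 and 12.6 FPKM in controls and 6.48, 5.64, 4.63 and 4.66 FPKM in *Usp39*-HKO mice. The groups were well apart. *Nr1i3* fell by 1.31 on the log2 scale (SE 0.16, adjusted p = 0.000758), while its target *Cyp2b10* rose. *Nr1i2*, which encodes PXR, had 36.1 ± 8.22 FPKM in controls and 56.7 ± 10.2 FPKM in *Usp39*-HKO mice and was not called (log2 fold change 0.42, SE 0.17, adjusted p = 0.0938). *Ppara* had 68.5 ± 7.83 FPKM in controls and 45.1 ± 5.78 FPKM in *Usp39*-HKO mice and fell by 0.83 on the log2 scale (SE 0.13, adjusted p = 0.00209). *Esr1*, the oestrogen receptor, fell by 1.02 on the log2 scale (SE 0.13, adjusted p = 0.000916). *Cebpa* fell by 0.67 on the log2 scale (SE 0.14, adjusted p = 0.00747) and *Stat5b*, which carries the growth hormone signal, fell by 0.54 on the log2 scale (SE 0.13, adjusted p = 0.0122). *Foxa3*, a pioneer factor, fell by 0.46 on the log2 scale (SE 0.13, adjusted p = 0.0233), and *Nr1h4*, the bile acid receptor FXR, fell by 0.50 on the log2 scale (SE 0.15, adjusted p = 0.0309). *Nr0b2*, the repressor SHP that FXR induces, fell by 0.63 on the log2 scale (SE 0.20, adjusted p = 0.0415), and *Hlf*, one of the PAR bZIP factors, fell by 0.53 on the log2 scale (SE 0.17, adjusted p = 0.0462). *Onecut1*, the factor HNF6, had 0.91 ± 0.155 FPKM in controls and 2.49 ± 0.954 FPKM in *Usp39*-HKO mice and rose by 1.22 on the log2 scale (SE 0.28, adjusted p = 0.0108). *Dbp*, a clock output factor, had 0.691, 1.31, 0.739 and 1.03 FPKM in controls and 11.1, 1.08, 2.17 and 2.85 FPKM in *Usp39*-HKO mice. A469 stood far above all other mice. *Dbp* rose by 1.99 on the log2 scale (SE 0.64, adjusted p = 0.0459), and without A469 the log2 fold change was 0.84 (adjusted p = 0.0846). *Stat5b* lost its call without scaling (-0.30) and with limma (-0.29), at adjusted p between 0.113 and 0.13. *Foxa3* lost its call without scaling (-0.22), with limma (-0.21), with the filter at a mean FPKM of 5 (-0.38) and when A468, A469, A471 or A474 was left out (adjusted p between 0.0519 and 0.269). *Nr1h4* lost its call without scaling (-0.28), with limma (-0.29) and when A468, A472, A473, A475, A470, A471 or A474 was left out (adjusted p between 0.0511 and 0.114). *Nr0b2* lost its call without scaling (-0.39), with limma (-0.42), with the filter at a mean FPKM of 5 (-0.55) and when A472, A473, A475, A470 or A474 was left out (adjusted p between 0.0664 and 0.2). *Hlf* lost its call without scaling (-0.31), with limma (-0.29), with the filter at a mean FPKM of 5 (-0.45) and when A468, A472, A473, A475, A470, A471 or A474 was left out (adjusted p between 0.0633 and 0.175). *Dbp* lost its call with limma (1.12) and when A468, A472, A473, A475, A469 or A474 was left out (adjusted p between 0.0539 and 0.112). Of the 23, 7 were called without control A468, control A473 or control A475 and 6 without A474. *Hnf4a*, whose letters mark 10 of the member windows, had 158 ± 29.1 FPKM in controls and 158 ± 13.6 FPKM in *Usp39*-HKO mice and was not called (log2 fold change -0.23, SE 0.14, adjusted p = 0.292). *Ahr*, *Arnt*, *Rxra*, *Rxrb*, *Foxa1*, *Foxa2*, *Cebpb*, *Tef*, *Stat5a* and *Bcl6* were not called. *Ahrr* and *Cux2* were not tested. *Cux2*, a factor of female liver, had 2.31 FPKM in control A472 and 0.054 to 0.335 FPKM in the other mice.

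**Figure D5:**
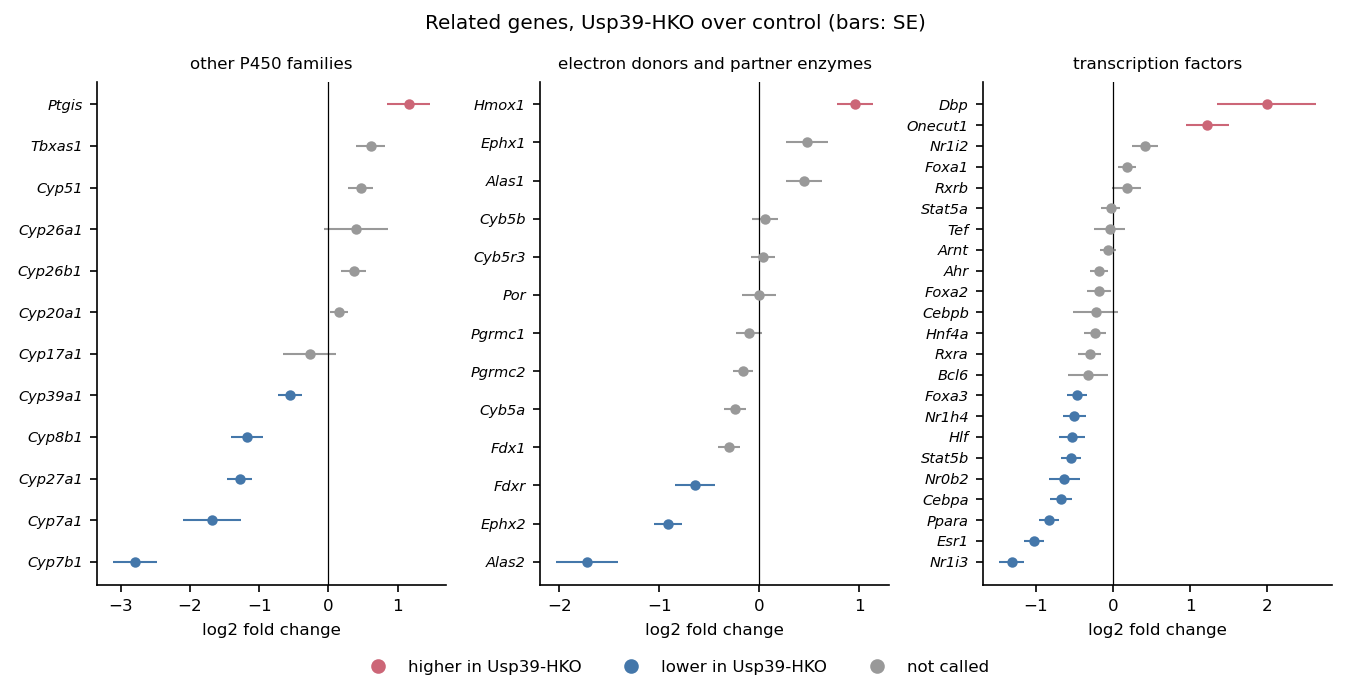
Log2 fold change, *Usp39*-HKO against control, with its SE for tested P450 genes of other families, partner enzymes and transcription factors, coloured by call. *Cyp7b1* (-2.79) and *Dbp* (1.99) mark the ends of the range.

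Markers of other liver cells moved with genotype as well. Their counts of calls stand beside 10.9% of all genes called higher and 11.6% called lower. The 8 hepatocyte markers summed to 16098, 17252, 16583 and 15405 FPKM in controls and to 19022, 13396, 16661 and 13550 FPKM in *Usp39*-HKO mice, with *Alb* the most abundant. None of them was at 0, and *Serpina1a*, *Hpd* and *Asgr1* fell while the other 5 were not called. The 6 cholangiocyte markers summed to 28.3, 28.7, 26.4 and 27.4 FPKM in controls and to 64.2, 139, 149 and 286 FPKM in *Usp39*-HKO mice. *Spp1* was the most abundant, and all 4 that were tested rose. The 6 macrophage markers went from 294, 331, 275 and 300 to 463, 493, 504 and 704 FPKM, with *Cd5l* on top and 5 of 6 called higher. The 7 stellate cell and fibroblast markers went from 71.7, 65.4, 65 and 61.5 to 101, 173, 141 and 193 FPKM, with *Dcn* on top and 5 of 7 called higher. A474 was the highest in all 3 lists, and it was also the mouse with the lowest summed P450 level. The part of these cells in the P450 results was not tested.

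The 6 endothelial markers summed to 88.5 ± 4.67 FPKM in controls and 85 ± 1.43 FPKM in *Usp39*-HKO mice, with *Clec4g* on top, and *Lyve1* and *Stab2* fell. The 4 T and B cell markers summed to 4.07 ± 0.524 and 5.1 ± 1.4 FPKM, and of 3 tested *Ptprc* rose. The 3 neutrophil markers, *S100a9* the most abundant, summed to 29.2 ± 12.1 and 36.8 ± 27.4 FPKM with no call in 2 tested. Of the erythroid markers *Hba-a1* had 117, 261, 166 and 168 FPKM in controls and 53.1, 95.8, 113 and 57.5 FPKM in *Usp39*-HKO mice and fell by 1.38 on the log2 scale (SE 0.28, adjusted p = 0.00589), and *Hbb-bs* has no entry under that symbol. Kidney markers summed to at most 0.073 FPKM and lung markers to at most 0.0976 FPKM in any mouse, and *Kap* and *Scgb1a1* had no count. Of the intestine markers only *Fabp2*, which hepatocytes also express, was tested, and it was not called. Pancreas markers summed to 92.3 FPKM in control A475, with *Cela1* at 50.1 and *Cpa1* at 42.1 FPKM, and to 2.45 to 2.98 FPKM in the other mice, while *Prss1* had no count. Without A475, 7 members were called higher and 16 lower.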

How the data were processed

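Trim Galore 0.6.1, FastQC 0.11.9, HISAT2, featureCounts, Picard and DESeq2 are named in the submitters' processing notes, with mm10 as the genome; the annotation and strand setting are not given in the sources used here. Raw counts for each gene and mouse were deposited without normalization. It also holds FPKM, which the authors computed from counts, exon length and total (recomputed to within 5.0e-07). Columns of the authors' own comparison (mean, log2 fold change, its error, statistic and p-values) were not used. The table has 55699 entries, 314 of them repeats.

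edgeR 4.0.16 (R 4.3.3, quasi-likelihood test) was fitted to the counts of all genes that passed the filter. Its TMM factors, from the same genes, were between 0.911 and 0.94 for controls and between 1.01 and 1.19 for *Usp39*-HKO mice. Genes with FPKM of at least 0.5 in 4 mice were tested, adjusted by Benjamini-Hochberg over 14340 genes, two-sided. On simulated data its true calls had the right direction, and most genes given the smallest fold were missed. Alternatives were DESeq2 1.42.0, limma 3.58.1 on log2(FPKM + 1), median-ratio scaling, no scaling, no filter, mean FPKM of at least 5, the study's cutoff and leaving out each mouse; summing near-identical copies (BLAST+ 2.17.0+, at least 150 bases at 97% identity over at least 50% of a transcript) was chosen after seeing the data. Coordinates are from GENCODE vM21. Named genes are *Usp39*; in each direction the 8 members with the largest called change and the 8 most abundant in controls, in every mouse; all other called members and list genes; and the most abundant member of each subfamily. Other genes are named where copies or the filter concern them, or to complete a list. The lists of transcription factors and erythroid markers were each reported without 1 planned gene, and the promoter search without 1 planned motif. The members and lists were chosen with earlier results of these data known.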

Additional observations from a re-analysis of the deposited data

Results flagged for a closer look

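One mouse lay far from the other 3 of its group (by Dixon's ratio of the gap to the nearest mouse over the range) in 10 of 106 groups examined, where chance gives about 1 in 20. Control A472 had 74.8 FPKM of *Cyp2c69*, against 18 to 25.3 in the other controls, and 1.52 FPKM of *Cyp3a41a*, against 0 to 0.14. It had 190 FPKM of *Cyp2a12*, against 181 in each of the other 3, a small step. A474 had 1027 FPKM of *Cyp4a10*, against 1566 to 1618 in the other *Usp39*-HKO mice, and 107 FPKM of *Cyp2c68*, against 124 to 127. Its macrophage markers summed to 704 FPKM, against 463 to 504. The endothelial markers of A469 summed to 87.2 FPKM, against 84.2 to 84.4. In control A475 the pancreas markers summed to 92.3 FPKM, against 2.45 to 2.83, and the intestine markers to 94.2 FPKM, against 124 to 129. Lung markers were at 0.0976 FPKM in control A472, a value that rests on 1 count, and 0 in the other controls. With the others at 0, any count gives the largest possible ratio.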

How the results depend on the processing

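Of the 34 called members, 20 were called in every alternative that gave them a value and none changed sign. Higher members numbered 9, but 15 without a filter and 5 at a mean FPKM of at least 5, where fewer genes were tested. Lower members numbered 25, but 15 with limma. Leaving out each mouse gave 7 to 10 higher and 14 to 27 lower; 13 of the 34 members lost their call in at least 1 such fit, in which fewer mice were compared. Without scaling 7 called members lost their call, with limma 10 and at a mean FPKM of at least 5 it was 3. With near copies summed, 9 of 47 features were higher and 22 lower, and the study's cutoff gave 11 and 25, beside 12.1% and 9.62% of all genes. Called transcription factors numbered 11, but 7 with limma and 5 at the stricter filter. The receptor-linked members went from 5 called to 9 with DESeq2 and 2 at the stricter filter. The cause was not tested. Leaving out each mouse gave 3 to 8 genes of other families, 3 to 5 partner enzymes, 6 to 10 transcription factors, 7 to 10 sex-biased and 3 to 7 receptor-linked members. *Cyp2a12* (-0.09) was 0.13 without scaling, 0.12 with limma and between -0.20 and 0.01 with a mouse left out. *Cyp3a11* (0.01) was 0.24 without scaling, 0.23 with limma, -0.01 without a filter and between -0.07 and 0.11 with a mouse left out. Depth limits members near 3 counts per mouse, whose values rest on few reads. No paired analysis was possible because the mouse names give the groups no shared replicate numbers.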
